A study of Mus musculus with 9 samples.

Results

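Serpins are a large protein family named for the serine protease inhibitors in it, and their genes were followed in the mouse liver after acetaminophen. Members were all gene symbols that begin with Serpin, a clade letter from a to i and a digit, kept where at least 10 raw counts were present in at least 3 of the 9 libraries. Of 28956 rows in the count table, 56 symbols matched and 38 were kept. All 38 passed the low-count filter of the statistical model, among 17582 genes tested. They comprised 22 clade A genes, 7 clade B genes, 4 coagulation and complement genes outside clade A, and 5 others. The 18 symbols that were not kept were 5 clade A genes, 12 clade B genes and 1 other.

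Libraries came from 3 groups of 3, all from C57BL6J mice aged 8 wk that had received 300 mg/kg of APAP, commonly short for acetaminophen, by intraperitoneal injection. The APAP_MSC group also received 500000 MSC and the APAP_HDF group 500000 HDF, each intravenously 90 min after APAP, while the APAP group received no cells. Per the series title, the time point was 24 h. Neither abbreviation is spelled out in the labels; usually MSC means mesenchymal stromal cells, and HDF means human dermal fibroblasts. The species, donor and passage of the injected cells are not given either. No liver without APAP was analysed here, so every difference is one between injured livers. Whether each library came from a separate animal is not stated, so p-values here reflect only how these samples spread, which may be technical.

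An inhibitory serpin presents a loop as bait to its target protease, is cut there, and changes shape in a way that traps the enzyme. The liver secretes most serpins of blood plasma, which restrain neutrophil elastase, clotting, fibrinolysis and complement. Other members have lost inhibition and carry hormones or assist protein folding, and clade B members mostly stay inside cells. Where a person has a single alpha-1 antitrypsin gene and a single alpha-1 antichymotrypsin gene, the mouse has clusters of Serpina1 and Serpina3 copies. In the RefSeq table for build GRCm38.p6, 26 of the 56 symbols lay on chromosome 12, 13 on chromosome 13 and 8 on chromosome 1.

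Hepatocytes are the labelled cell type, while the extraction protocol starts from whole liver tissue. Of 8 hepatocyte marker genes 7 were matched, and they summed to 101950 to 112920 CPM in APAP_MSC, 94416 to 121250 CPM in APAP_HDF and 97122 to 122820 CPM in APAP, where CPM stands for counts scaled to a common library total with TMM factors. Macrophage, endothelial and stellate cell markers were also present, at sums of 133 to 347 CPM across all libraries, and no listed and matched marker was at 0 in all 9 libraries. The values are therefore those of whole liver. Libraries held 53267000 to 63176000 counts, rounded to 5 digits, and a gene at 0 could lie at up to 3 counts, or 0.0453 to 0.0567 CPM, which covers only counting error. Of all counts from 2 to 21, 72.7% to 74.9% were even numbers in each library, so low counts are mostly steps of 2. The limit of 3 counts takes counts as independent, and is therefore too low here.

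Part of the Serpina1 promoters is the same in all 5 copies, and it is printed because these copies hold most serpin reads. RefSeq promoter windows, cut to the 250 bases before the gene start, were at hand for 27 of the 38 kept genes. The stretches printed here are each 50 bases long and read 5′ to 3′ on the minus strand of GRCm38.p6, with the letters GTTAAT in capitals. These letters are a half-site recognised by HNF1, a transcription factor of liver cells, and the Serpina7 stretch is set beside them.
Serpina1a, chr12:103863625-103863674: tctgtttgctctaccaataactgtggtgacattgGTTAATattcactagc
Serpina1b, chr12:103738200-103738249: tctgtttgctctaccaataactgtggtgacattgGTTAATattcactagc
Serpina1c, chr12:103904962-103905011: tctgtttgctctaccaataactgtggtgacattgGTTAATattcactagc
Serpina1d, chr12:103773634-103773683: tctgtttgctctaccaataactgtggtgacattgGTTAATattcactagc
Serpina1e, chr12:103956960-103957009: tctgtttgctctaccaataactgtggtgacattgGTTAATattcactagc
Serpina7, chrX:139085278-139085327: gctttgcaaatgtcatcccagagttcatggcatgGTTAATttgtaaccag
The 5 Serpina1 stretches are identical, while their distance from the annotated start differs. The first letter of the half-site lies 16 bases before the start in Serpina1d, 21 in Serpina1a, 26 in Serpina1b, 27 in Serpina1c and 78 in Serpina1e. Over the whole 250 bases, Serpina1a to Serpina1d were 84.3% to 91.0% identical to one another and 58.0% to 64.2% identical to Serpina1e. Gaps counted as differences. The Serpina1e window is shifted, with its half-site 78 bases before the start, so its lower values are not those of aligned letters alone. Searched on both strands, GTTAAT occurred in 6.43% of 32851 promoter windows of this length and in 9 of the 31 windows of kept serpins. These windows belong to 8 of the 27 genes, with Serpina3c and Serpinb8 besides Serpina1 and Serpina7. The 5 Serpina1 copies share 1 stretch, so they are not independent matches. A match is a description of letters and not of a bound site.

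By summed level, the family was dominated by secreted clade A genes in each library. Serpins held 4.83%, 4.52% and 4.17% of all counts in APAP_MSC, 4.39%, 5.04% and 5.26% in APAP_HDF and 4.13%, 4.93% and 4.44% in APAP, and the ranges of the 3 groups overlapped. Clade A made up 89.9% to 92.8% of serpin counts. Per kilobase of annotated exon, Serpina1e had the highest group mean of any kept serpin, with 8943 CPM per kb in APAP_MSC, 9239 in APAP_HDF and 6877 in APAP, and Serpina3k followed with 4578, 4510 and 5055 CPM per kb in the same order of groups. At the other end, 10 of the 38 genes averaged under 1 CPM over the 9 libraries, and Serpinb10 had the smallest sum, 78 counts. Just outside the rule, Serpina3e-ps reached 26 counts, Serpinb9e 14 and Serpina3a 12 in a single library.

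**Figure D1:**
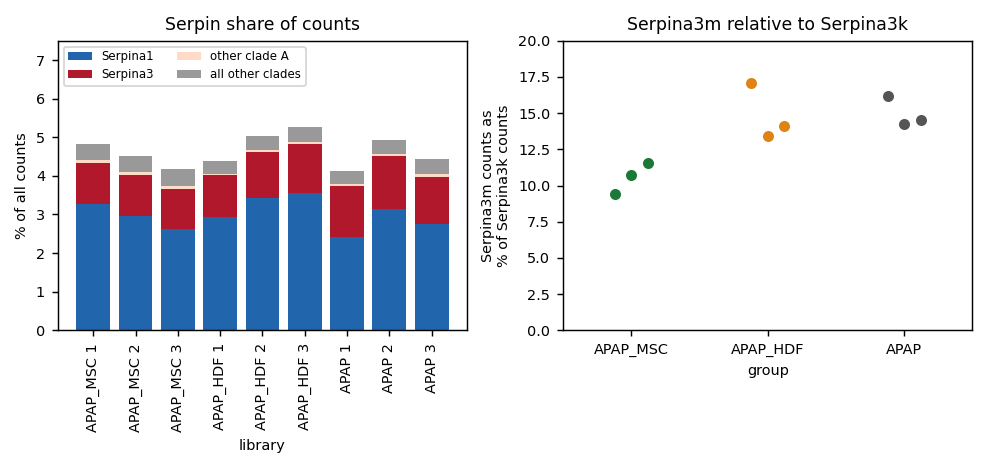
Left, serpin counts as a percentage of all counts in each library (bars from 0, stacked by class). Right, Serpina3m counts as a percentage of Serpina3k counts, where the points are libraries. On the right the 3 APAP_MSC libraries lie between 9.45% and 11.6%, below the APAP_HDF libraries (13.4% to 17.1%) and the APAP libraries (14.2% to 16.2%).

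How serpin expression in the injured liver differed when MSC were given is the question of APAP_MSC against APAP. Serpina6 and Serpinf1 were higher, and Serpina3m, Serpinb6a and the pseudogene Serpina3d-ps were lower. Thus 5 of 38 serpins passed (edgeR quasi-likelihood test, Benjamini-Hochberg adjusted over 17582 genes, threshold 0.05), 2 higher and 3 lower. Serpina3d-ps met the rule for members only through the groups where it is high, so its call supports nothing about the family, and 4 calls, 2 higher and 2 lower, remain without it. Values after ± beside a log2 fold change are SE throughout. Of all tested genes 6.38% passed, 2.83% higher and 3.54% lower. The median log2 fold change over the 38 was 0.10, against -0.01 over all tested genes. In APAP_HDF against APAP, 0 of 38 passed, and 4 had an unadjusted p under 0.05, against 0% and 8.78% of all tested genes, while DESeq2 called 0 serpins. Between APAP_MSC and APAP_HDF, 5 of 38 passed, 3 higher and 2 lower in APAP_MSC. Serpina6, Serpinc1 and Serpinf1 were higher, and Serpina3m was among the lower. The share among all tested genes was 8.89%, with 4.9% higher and 3.99% lower. The 2 comparisons with APAP share the APAP libraries, and those of APAP_MSC share the APAP_MSC libraries.

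**Figure D2:**
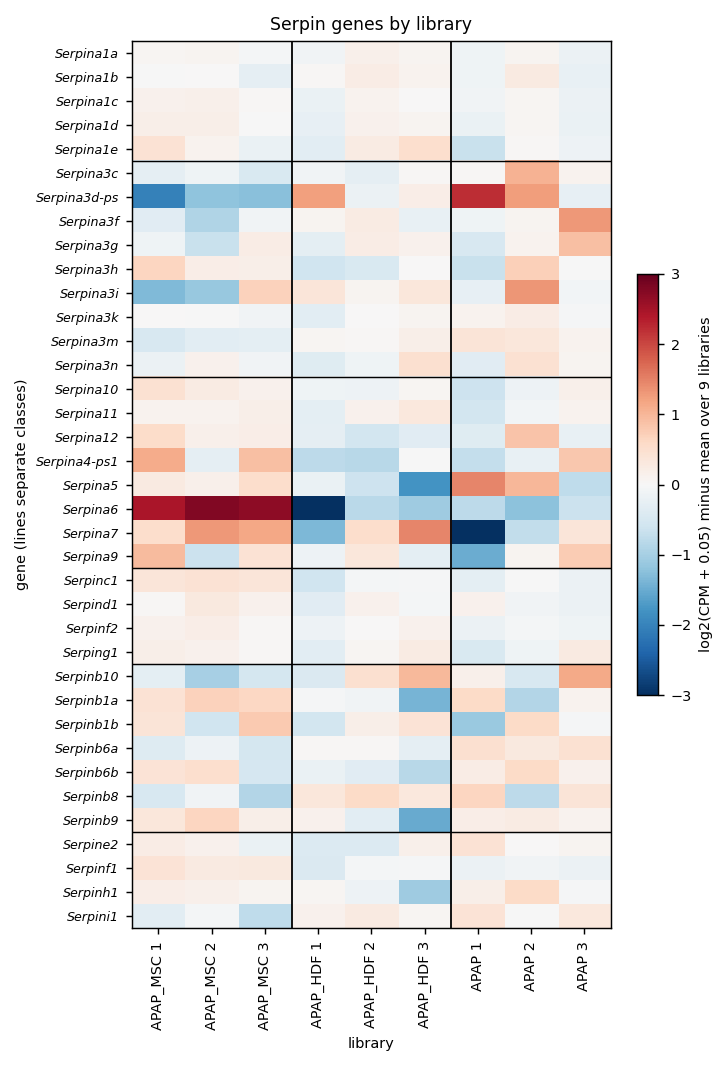
Level of the kept serpins described here (lines, grouped by class) in the 9 libraries (columns), as log2(CPM + 0.05) centred on each gene's own mean, with colours limited to -3 and 3. Serpina6 stands high in the 3 APAP_MSC libraries, and Serpina3d-ps stands low there, while the Serpina1 copies stay near their means.

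Of the 2 hormone carriers, Serpina6 was higher in APAP_MSC than in both other groups and Serpina7 did not pass. Serpina6 encodes corticosteroid-binding globulin, the plasma carrier of glucocorticoids. It had 20.1, 25.2 and 23.6 CPM in APAP_MSC libraries 1 to 3, 0.299, 2.03 and 1.70 CPM in the APAP_HDF libraries, and 2.07, 1.51 and 2.29 CPM in the APAP libraries. The APAP_MSC libraries lay close together and far above all 6 others, and the APAP_HDF and APAP ranges overlapped. Serpina6 rose 11.6-fold in APAP_MSC against APAP (log2 fold change 3.54 ± 0.42 SE, adjusted p = 0.0045) and was 17.2-fold higher than in APAP_HDF (4.10 ± 0.43, adjusted p = 0.00158). In APAP_HDF against APAP the log2 fold change was -0.56 ± 0.47, adjusted p = 0.745. APAP_HDF library 1 held 19 Serpina6 counts against 125 and 94 in its group, and without it the adjusted p of APAP_MSC against APAP was 1.41e-05 and the log2 fold change 3.55. Every 50-base window of the Serpina6 transcripts was unique to the gene among GENCODE M21 transcripts.

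Serpina7 encodes thyroxine-binding globulin, a carrier of thyroid hormone. It had 43.7, 75.05 and 67.6 CPM in APAP_MSC, 11.8, 43.6 and 83.1 CPM in APAP_HDF and 3.10, 18.2 and 38.6 CPM in APAP. Levels varied widely within APAP and APAP_HDF, though every APAP_MSC library lay above every APAP library. The log2 fold changes were 1.63 ± 0.90, adjusted p = 0.337 in APAP_MSC against APAP, 1.20 ± 0.90, adjusted p = 0.718 in APAP_HDF against APAP and 0.43 ± 0.88, adjusted p = 0.801 in APAP_MSC against APAP_HDF. None passed.

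On chromosome 12, Serpina6 lies between Serpina10 and Serpina1b in the RefSeq order of serpin genes. These neighbours did not pass. Serpina10 had a log2 fold change of 0.46 and Serpina1b one of -0.07 in APAP_MSC against APAP.

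Across all tested genes, 2.83% rose and 3.54% fell in APAP_MSC against APAP. In the list of steroid and thyroid hormone handling, which surrounds these carriers, 1 of 9 tested members rose and 0 fell in APAP_MSC against APAP (median 0.38). The riser was Srd5a1, a steroid 5-alpha-reductase, at 37.2 ± 5.12 CPM in APAP_MSC against 19.2 ± 1.52 CPM in APAP (SD, n = 3 each; 0.96 ± 0.13, adjusted p = 0.00455). Akr1d1, another steroid reductase, had 0.76 ± 0.33, adjusted p = 0.209. Dio1, which activates thyroid hormone, had 0.78 ± 0.25, adjusted p = 0.0936, and Ttr, another thyroxine carrier, 0.58 ± 0.18, adjusted p = 0.0723. Against APAP_HDF, 4.9% of all tested genes were higher in APAP_MSC and 3.99% lower. In the list, Srd5a1 (1.07 ± 0.13, adjusted p = 0.00158) and Akr1d1 (1.79 ± 0.34, adjusted p = 0.0162) were higher than in APAP_HDF and 0 of 9 lower. Neither these nor the others of the 9 passed in APAP_HDF against APAP.

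**Figure D3:**
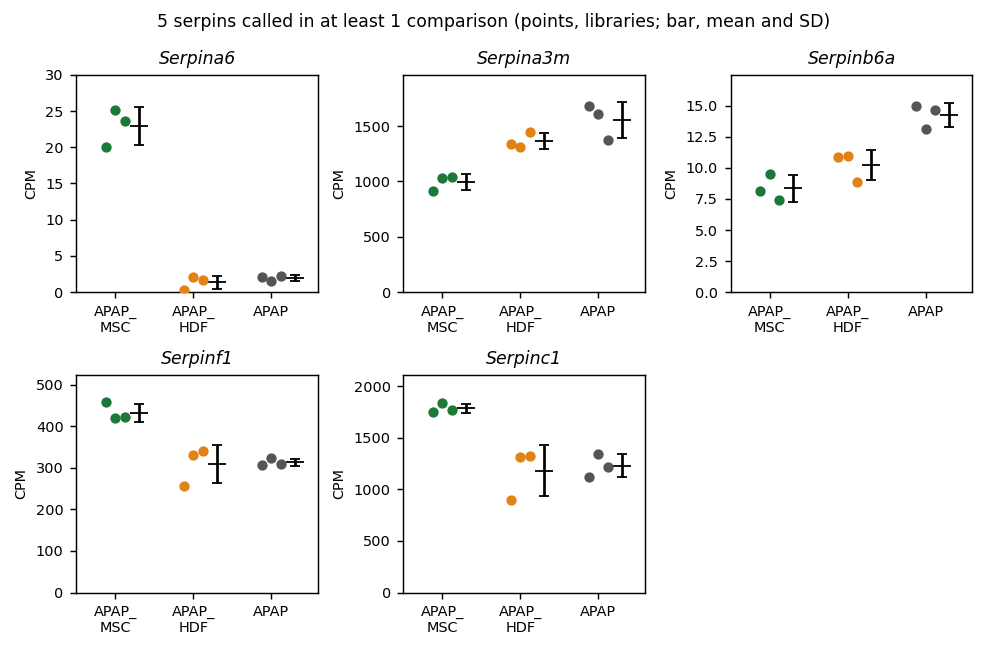
CPM (linear axes from 0) of 5 serpins that passed in at least 1 comparison; points are libraries and the bars beside them give the mean and SD of 3. Serpina3d-ps also passed but is too low to show beside them. Serpina6 lies between 20.1 and 25.2 CPM in APAP_MSC and at or below 2.29 CPM in the other 6 libraries, and Serpinb6a is highest in the 3 APAP libraries.

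The alpha-1 antitrypsin genes, Serpina1a to Serpina1e, encode inhibitors of neutrophil elastase and are among the most abundant liver transcripts. None of the 5 passed in any comparison. Serpina1e had 17740, 14140 and 11502 CPM in APAP_MSC, 10593, 15625 and 18597 CPM in APAP_HDF and 8229, 13408 and 11722 CPM in APAP. Its libraries differed about as much within groups as between them. Serpina1b had 6801, 6936 and 5758 CPM in APAP_MSC, 7061, 8031 and 7360 CPM in APAP_HDF and 6261, 8318 and 5913 CPM in APAP. Serpina1a had 5366, 5411 and 4918 CPM in APAP_MSC, 4774, 5721 and 5424 CPM in APAP_HDF and 4676, 5473 and 4565 CPM in APAP. In both genes the APAP_MSC and APAP ranges overlapped. Serpina1d had 2776, 2754 and 2416 CPM in APAP_MSC, 2069, 2656 and 2598 CPM in APAP_HDF and 2135, 2556 and 2127 CPM in APAP. Serpina1c had 2348, 2396 and 2223 CPM in APAP_MSC, 1875, 2319 and 2190 CPM in APAP_HDF and 2003, 2231 and 1902 CPM in APAP. These 2 copies had the lowest levels of the 5.

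Log2 fold changes of the 5 genes lay between -0.07 (Serpina1b) and 0.38 (Serpina1e) in APAP_MSC against APAP, and between 0.06 (Serpina1c) and 0.43 (Serpina1e) in APAP_HDF against APAP. The largest SE in either was 0.25, that of Serpina1e. Summed to 1 entry, the Serpina1 copies differed by 0.20 ± 0.19 (adjusted p = 0.594) in APAP_MSC against APAP and by 0.25 ± 0.19 (adjusted p = 0.715) in APAP_HDF against APAP. Copies can share reads: 41.5% (Serpina1c) to 85.6% (Serpina1e) of 100-base transcript windows were unique to 1 gene, so single copies are uncertain and the sum is less so. Serpina1e held 50.6%, 44.7% and 42.9% of Serpina1 counts in APAP_MSC, 40.2%, 45.5% and 51.4% in APAP_HDF and 35.3%, 41.9% and 44.7% in APAP. That share did not separate APAP_MSC from APAP (difference of means 5.44 percentage points, exact permutation p = 0.2, two-sided, where 0.1 is the smallest possible; Benjamini-Hochberg adjusted p = 0.48 over 12 such comparisons of shares).

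The Serpina3 cluster descends from the ancestor of the human alpha-1 antichymotrypsin gene. Of its 9 kept members, 0 rose and 2 were called lower in APAP_MSC against APAP, Serpina3m and Serpina3d-ps, and 0 of 9 passed in APAP_HDF against APAP. Of all tested genes, 2.83% rose and 3.54% fell in the first comparison, and 0% passed in the second. Serpina3d-ps met the rule for members only through the groups where it is high, so its call supports nothing about the cluster. Serpina3m, one of its 3 abundant members, had 915, 1028 and 1042 CPM in APAP_MSC libraries 1 to 3, 1335, 1315 and 1447 CPM in the APAP_HDF libraries, and 1679, 1613 and 1376 CPM in the APAP libraries. All 3 APAP_MSC libraries lay below the other 6, and the APAP_HDF and APAP ranges overlapped. Serpina3m fell 1.56-fold in APAP_MSC against APAP (-0.65 ± 0.12, adjusted p = 0.017) and was lower than in APAP_HDF (-0.46 ± 0.12, adjusted p = 0.0391), while APAP_HDF and APAP differed by -0.19 ± 0.12, adjusted p = 0.665. Without APAP_MSC library 1 the adjusted p against APAP was 0.0663, and without APAP_MSC library 2 it was 0.0835. Against APAP_HDF the call was lost without any 1 of 7 libraries, with adjusted p up to 0.152, and held without APAP library 1 or 3.

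Serpina3k, the most abundant member, encodes the plasma protease inhibitor long known as contrapsin. It had 9682, 9568 and 8998 CPM in APAP_MSC, 7802, 9797 and 10235 CPM in APAP_HDF and 10380, 11330 and 9484 CPM in APAP. Group ranges overlapped, and its log2 fold change was -0.14 ± 0.15, adjusted p = 0.626 in APAP_MSC against APAP. Serpina3n, an inducible acute phase member that inhibits granzyme B, had 717, 881 and 749.8 CPM in APAP_MSC, 627, 739.7 and 1125 CPM in APAP_HDF and 638, 1109 and 855 CPM in APAP. Its ranges overlapped as well, with log2 fold changes of -0.15 in APAP_MSC against APAP and -0.06 in APAP_HDF against APAP (adjusted p = 0.765 and 0.959).

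Within a library, Serpina3m could be set against its close relative. Serpina3m counts were 9.45%, 10.7% and 11.6% of Serpina3k counts in APAP_MSC, 17.1%, 13.4% and 14.1% in APAP_HDF and 16.2%, 14.2% and 14.5% in APAP. The APAP_MSC libraries did not overlap the others. The difference of means against APAP was -4.38 percentage points, with an exact permutation p = 0.1, the smallest that 3 against 3 allows (adjusted p = 0.3 over the 12 comparisons of shares). Of 100-base windows, 93.9% were unique to Serpina3m and 95.2% to Serpina3k. The 14 matched Serpina3 symbols summed to 1 entry differed by -0.20 ± 0.15 (adjusted p = 0.485). As a share of all serpin counts, they made up 21.9%, 23.7% and 25.3% in APAP_MSC, 24.7%, 23.5% and 23.9% in APAP_HDF and 32.0%, 28.0% and 27.7% in APAP. Both cell-treated groups lay below APAP in that share without overlap (exact permutation p = 0.1, adjusted p = 0.3 each). The Serpina1 copies made up 67.8%, 65.4% and 62.8% of serpin counts in APAP_MSC, 66.7%, 68.1% and 67.6% in APAP_HDF and 58.8%, 63.7% and 62.0% in APAP, and shares of 1 total are not independent of each other.

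Serpina3d-ps, annotated as a pseudogene, is close to the floor of detection. It had 0, 2 and 2 counts in APAP_MSC, 27, 8 and 10 in APAP_HDF and 49, 23 and 8 in APAP. It met the rule for members only through its APAP_HDF and APAP libraries. The fitted log2 fold change in APAP_MSC against APAP (-4.13 ± 0.998, adjusted p = 0.0272) depends on the prior count and is no bound, and the call was lost without APAP library 1 (adjusted p = 0.0908) or without any 1 of the 3 APAP_MSC libraries (adjusted p up to 0.142). The remaining members, Serpina3c, Serpina3f, Serpina3g, Serpina3h and Serpina3i, averaged between 0.219 and 2.56 CPM per group, and none passed. Serpina3c, Serpina3f, Serpina3g and Serpina3i had a negative log2 fold change in APAP_MSC against APAP, down to -1.02 ± 0.38, adjusted p = 0.14 for Serpina3f. That of Serpina3h was 0.29.

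No other clade A gene passed in any comparison. Serpina10 encodes the inhibitor of factor Xa that works with protein Z. It had 402, 348 and 318 CPM in APAP_MSC, 265, 263 and 302 CPM in APAP_HDF and 189, 263 and 323 CPM in APAP, with a log2 fold change of 0.46 ± 0.17, adjusted p = 0.137 in APAP_MSC against APAP and 0.36 ± 0.17, adjusted p = 0.214 in APAP_MSC against APAP_HDF. Without APAP library 3 it passed against APAP (0.66, adjusted p = 0.0467). Serpina12 encodes vaspin, a secreted serpin first known from fat tissue. It had 50.4, 38.6 and 39.8 CPM in APAP_MSC, 28.7, 23.5 and 27.5 CPM in APAP_HDF and 27.1, 62.3 and 29.5 CPM in APAP. APAP library 2 stood apart from its group, and without it Serpina12 passed in APAP_MSC against APAP (0.61, adjusted p = 0.0477) and against APAP_HDF (0.71, adjusted p = 0.0106). With all libraries the log2 fold changes were 0.12 ± 0.29, adjusted p = 0.86 against APAP and 0.69 ± 0.29, adjusted p = 0.167 against APAP_HDF.

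Among the rest, Serpina11, Serpina9 and the transcribed pseudogene Serpina4-ps1 had log2 fold changes of 0.28, 0.32 and 0.60 in APAP_MSC against APAP, with adjusted p from 0.386 to 0.775. Serpina5, the protein C inhibitor gene, which the mouse expresses mainly outside the liver, stayed at 0.145 to 1.80 CPM across the libraries. Its log2 fold change in APAP_HDF against APAP was -1.61 ± 0.57, adjusted p = 0.535.

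Among the coagulation and complement serpins, Serpinc1 was higher in APAP_MSC than in APAP_HDF, and no other member passed in any comparison. Of the 6 genes of this class, Serpina10 and Serpina5 included, 0 passed in APAP_MSC against APAP (median 0.22) and 1 was higher and 0 lower in APAP_MSC against APAP_HDF (median 0.30). Of all tested genes, 2.83% rose and 3.54% fell in APAP_MSC against APAP (median -0.01). Against APAP_HDF, 4.9% of all tested genes were higher and 3.99% lower (median -0.02). Serpinc1 encodes antithrombin, the main inhibitor of thrombin and factor Xa. It had 1755, 1839 and 1767 CPM in APAP_MSC libraries 1 to 3, 895, 1318 and 1327 CPM in the APAP_HDF libraries, and 1123, 1345 and 1217 CPM in the APAP libraries. Every APAP_MSC library lay above the other 6. Antithrombin transcripts were 1.51-fold higher in APAP_MSC than in APAP_HDF (0.60 ± 0.16, adjusted p = 0.0365) and differed from APAP by 0.54 ± 0.16, adjusted p = 0.0615. APAP_HDF library 1 is low in its group, and without it the first difference was 0.44 (adjusted p = 0.0444) and the second 0.55 (adjusted p = 0.00834). The call against APAP_HDF was lost without APAP_HDF library 2 (adjusted p = 0.0539) or any 1 APAP_MSC library (adjusted p up to 0.134), and DESeq2 called Serpinc1 against APAP too (adjusted p = 0.0116).

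Serpind1, heparin cofactor II, had 424, 507 and 451 CPM in APAP_MSC, 325, 451 and 399.5 CPM in APAP_HDF and 453, 384 and 367 CPM in APAP. The ranges overlapped. Serpinf2, alpha-2-antiplasmin, the inhibitor of plasmin, had 1059, 1106 and 993 CPM in APAP_MSC, 870.1, 974 and 1054 CPM in APAP_HDF and 861, 921 and 886 CPM in APAP. Each APAP_MSC library lay above each APAP library, though the difference of 0.24 ± 0.11, adjusted p = 0.225 did not pass. Serping1, the C1 inhibitor of complement, had 685, 665 and 627 CPM in APAP_MSC, 490.3, 641 and 724 CPM in APAP_HDF and 448, 562 and 733 CPM in APAP. Its log2 fold changes were 0.18 in APAP_MSC against APAP and 0.09 in APAP_HDF against APAP, and neither passed.

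Promoter letters of the antithrombin gene, as the member of this class that passed, are given with those of Serpinf1. Both windows are the 250 bases before the start in GRCm38.p6, on the plus strand for Serpinc1 and the minus strand for Serpinf1, and no capitals appear because neither holds GTTAAT.
Serpinc1, chr1:160978333-160978582: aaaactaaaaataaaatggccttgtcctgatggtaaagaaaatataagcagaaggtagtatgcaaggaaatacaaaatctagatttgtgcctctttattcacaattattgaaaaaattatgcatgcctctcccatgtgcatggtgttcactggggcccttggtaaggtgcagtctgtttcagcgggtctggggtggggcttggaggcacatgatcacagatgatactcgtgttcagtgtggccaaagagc
Serpinf1, chr11:75422624-75422873: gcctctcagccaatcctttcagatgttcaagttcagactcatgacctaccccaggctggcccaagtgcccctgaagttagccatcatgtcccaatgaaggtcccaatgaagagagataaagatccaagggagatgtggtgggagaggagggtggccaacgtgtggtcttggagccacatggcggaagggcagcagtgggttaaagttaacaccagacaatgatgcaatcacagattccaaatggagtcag
Both windows were searched on both strands for 6 motifs in all. Besides GTTAAT these were TTGCNNAA (found in 9.56% of all windows), CAAAGTCCA (0.38%), CACGTG (6.02%), TGANTCA (6.75%) and TATAAA (12.37%). None of the 6 occurs in either window. Of the 31 windows of kept serpins, from 27 genes, TTGCNNAA occurred in 9 (7 genes), TGANTCA in 6 (6 genes) and TATAAA in 4 (3 genes). CAAAGTCCA and CACGTG occurred in 0. A window without these letters says nothing about a factor.

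Proteases that these inhibitors act on, or that belong to the same plasma cascades, were listed separately. Of 17 such genes, 2 rose and 0 fell in APAP_MSC against APAP, with a median log2 fold change of 0.34 against -0.01 over all tested genes, of which 2.83% rose and 3.54% fell. F10, the factor X gene, had 462 ± 35.7 CPM in APAP_MSC against 266 ± 20.1 CPM in APAP (0.79 ± 0.17, adjusted p = 0.0245). F7, factor VII, which starts clotting with tissue factor, had 86.2 ± 4.94 CPM against 62.04 ± 4.32 CPM (0.47 ± 0.11, adjusted p = 0.0351). C1s1, a complement protease that the C1 inhibitor blocks, had 0.43 ± 0.12, adjusted p = 0.0527, and Plau, the urokinase gene, -1.11 ± 0.32, adjusted p = 0.0613. Against APAP_HDF, 6 of 17 were higher in APAP_MSC and 0 lower, namely F7, F10, Masp2, C1ra, C1s1 and Hgfac, with log2 fold changes of 0.36 to 0.97, where 4.9% of all tested genes were higher and 3.99% lower. For APAP_HDF against APAP the median was -0.09 and 0 of 17 passed.

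As above, 2.83% of all tested genes rose and 3.54% fell in APAP_MSC against APAP, and 4.9% were higher and 3.99% lower against APAP_HDF. Cofactors and clearance receptors of serpins formed a further list. Of 11, 0 rose and 1 fell in APAP_MSC against APAP: Thbd, thrombomodulin of endothelial cells (-2.18 ± 0.46, adjusted p = 0.0291). Vtn, vitronectin of plasma and matrix, had 0.72 ± 0.21, adjusted p = 0.065, the receptor gene Vldlr 1.59 ± 0.45, adjusted p = 0.0597 and the syndecan gene Sdc1 0.66 ± 0.19, adjusted p = 0.0578. Against APAP_HDF, Sdc1 (0.92 ± 0.19, adjusted p = 0.0146) and Proz, protein Z (0.69 ± 0.15, adjusted p = 0.0163), were higher and 0 of 11 lower. Of 8 tested genes of heparan sulfate synthesis, which makes the chains that activate antithrombin, 0 passed against APAP, where Hs6st1 had 0.52 ± 0.14, adjusted p = 0.0522. Against APAP_HDF Hs6st1 was higher (0.60 ± 0.14, adjusted p = 0.025) and 0 of 8 were lower. Against APAP, 0 members of either list passed in APAP_HDF.

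Serpine2 encodes protease nexin 1, an inhibitor of thrombin and other proteases at the cell surface. It had 3.19, 2.98 and 2.40 CPM in APAP_MSC, 2.05, 2.06 and 3.04 CPM in APAP_HDF and 3.72, 2.76 and 2.93 CPM in APAP. Ranges overlapped between APAP_MSC and each other group, with log2 fold changes of -0.13 against APAP and 0.27 against APAP_HDF.

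Several serpins, those of clade B among them, are also expressed by endothelial and myeloid cells, and some markers of these cells differed between the groups. Beside the counts that follow, 2.83% of all tested genes rose and 3.54% fell in APAP_MSC against APAP. Against APAP_HDF, 4.9% of all tested genes were higher in APAP_MSC and 3.99% lower. Sinusoidal endothelial markers, 8 genes, summed to 133 to 151 CPM in APAP_MSC, 180 to 254 CPM in APAP_HDF and 186 to 283 CPM in APAP, and 3 of 8 fell in APAP_MSC against APAP. Monocyte and macrophage markers, 10 genes, summed to 145 to 164 CPM in APAP_MSC, 137 to 174 CPM in APAP_HDF and 179 to 251 CPM in APAP, with 4 of 10 lower. Neutrophil markers, 8 genes of which 7 were tested, summed to 2.94 to 4.41 CPM in APAP_MSC, 3.50 to 12.04 CPM in APAP_HDF and 10.3 to 13.5 CPM in APAP, with 4 of 7 lower. Against APAP_HDF, 3 of 8 endothelial, 2 of 10 macrophage and 1 of 7 neutrophil markers were lower in APAP_MSC, and 1 macrophage marker was higher. In that comparison 4 of 6 cholangiocyte markers, 1 of 9 stellate, 1 of 4 platelet and 1 of 3 tested erythroid markers were also higher, and 0 of these lists' markers were lower. Cholangiocyte markers summed to 116 to 131.5 CPM in APAP_MSC, 99.5 to 104 CPM in APAP_HDF and 94.98 to 149 CPM in APAP. Spp1 is listed among both the macrophage and the cholangiocyte markers, so it enters both sums and both counts. Platelet markers, 4 matched, summed to 4.44 to 5.39 CPM in APAP_MSC, 4.84 to 6.91 CPM in APAP_HDF and 5.14 to 6.96 CPM in APAP, with 1 of 4 higher in APAP_MSC against APAP. Erythroid markers, 4 genes of which 3 were tested, summed to 111 to 189 CPM in APAP_MSC and 59.1 to 76.6 CPM in APAP_HDF. In APAP the erythroid sums were 49.6 to 148 CPM, and 1 of 3 was higher in APAP_MSC against APAP. Kupffer cell markers, 5 genes, summed to 91.6 to 160 CPM in APAP_MSC, 61.6 to 137 CPM in APAP_HDF and 109 to 270.2 CPM in APAP, and 0 of 5 passed. The part of these cells in the serpin differences was not tested, and fewer cells of a type and less RNA per cell cannot be told apart in whole liver.

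TGF-beta, a driver of scar formation, is known to induce collagen-related genes such as Serpinh1, and 3 listed genes of its pathway fell in APAP_MSC against APAP. Of 13 tested members 0 rose, and the median was -0.23, while 2.83% of all tested genes rose and 3.54% fell. Smad7, the feedback inhibitor of the pathway, had 12.5 ± 2.06 CPM in APAP_MSC against 25.4 ± 0.949 CPM in APAP (-1.02 ± 0.13, adjusted p = 0.00353). The receptor gene Tgfbr2 (-0.94 ± 0.17, adjusted p = 0.0144) and the SMAD repressor gene Skil (-0.52 ± 0.13, adjusted p = 0.0426) fell as well, and Smad6, another inhibitory SMAD, had -0.52 ± 0.14, adjusted p = 0.052. Against APAP_HDF, Smad7, Smad6, Smad4 and Tgfbr1 were lower, with log2 fold changes of -0.45 to -1.05, and 0 of 13 were higher. In that comparison 3.99% of all tested genes were lower and 4.9% higher. With HDF, 0 of 13 passed against APAP (median 0.02).

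Clade B serpins act mostly inside cells, and 1 of the 7 kept fell in APAP_MSC against APAP, where 3.54% of all tested genes fell. Serpinb6a encodes an intracellular inhibitor of proteases such as cathepsin G. It had 8.10, 9.50 and 7.42 CPM in APAP_MSC libraries 1 to 3, 10.9, 10.9 and 8.87 CPM in the APAP_HDF libraries, and 14.95, 13.1 and 14.7 CPM in the APAP libraries. All 3 APAP libraries lay above the 6 from cell-treated mice. Serpinb6a fell 1.71-fold in APAP_MSC against APAP (-0.77 ± 0.14, adjusted p = 0.0146), and in APAP_HDF it differed by -0.48 ± 0.14, adjusted p = 0.495, which did not pass. Its call was lost without APAP_MSC library 1 (adjusted p = 0.0543) or library 3 (adjusted p = 0.0552). The 4 matched Serpinb6 symbols summed to 1 entry fell too, by 0.67 ± 0.14 on the log2 scale (adjusted p = 0.0234).

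Serpinb9, which protects cells against granzyme B, had 6.22, 7.65 and 5.52 CPM in APAP_MSC, 5.41, 3.93 and 1.70 CPM in APAP_HDF and 5.63, 5.84 and 5.25 CPM in APAP. No comparison passed, and APAP_HDF library 3 was the lowest. Against APAP_HDF its log2 fold change was 0.80 ± 0.31, adjusted p = 0.134, and without APAP_HDF library 1 it passed (1.19, adjusted p = 0.0424). Serpinb8, an intracellular inhibitor of furin in human cells, had 1.29, 1.68 and 0.969 CPM in APAP_MSC, 2.33, 2.75 and 2.30 CPM in APAP_HDF and 2.87, 1.05 and 2.38 CPM in APAP. Its APAP_MSC libraries lay below those of APAP_HDF, with a log2 fold change of -0.91 ± 0.34, adjusted p = 0.116, which passed in a fit of only those 2 groups (-0.90, adjusted p = 0.048). Serpinb1a, an inhibitor of neutrophil elastase, had 14, 17 and 17 counts in APAP_MSC, 11, 10 and 2 in APAP_HDF and 16, 4 and 13 in APAP. Serpinb1b, Serpinb6b and Serpinb10, which did not pass, showed log2 fold changes of 0.38, -0.11 and -1.49 in APAP_MSC against APAP. Serpinb10 had only 5, 2 and 4 counts in APAP_MSC. It met the rule for members only through APAP_HDF and APAP libraries, so its value supports nothing about the clade.

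Among listed cysteine cathepsins and granule proteases, which are not all targets of clade B serpins, few passed. The shares of all tested genes were 2.83% higher and 3.54% lower in APAP_MSC against APAP, and 4.9% and 3.99% against APAP_HDF. Of 7 cysteine cathepsin genes, 0 rose and 1 fell in APAP_MSC against APAP, Ctsc, the dipeptidyl peptidase that activates neutrophil proteases (-0.43 ± 0.11, adjusted p = 0.0463). Against APAP_HDF Ctsc was again lower (-0.52 ± 0.11, adjusted p = 0.0186) and 0 of 7 were higher. The macrophage cathepsin gene Ctss had -1.11 ± 0.34, adjusted p = 0.0896 against APAP, while Ctsb and Ctsh had -0.09 and 0.18. Of 7 listed genes for proteases and other proteins of neutrophil, mast cell and cytotoxic granules, 3 could be tested and 0 passed in any comparison. Gzmb, granzyme B, had log2 fold changes of -1.05 ± 0.75, adjusted p = 0.448 in APAP_MSC against APAP and -2.56 ± 0.93, adjusted p = 0.535 in APAP_HDF against APAP. Prtn3, proteinase 3, had 0.59 ± 0.48, adjusted p = 0.53 in APAP_MSC against APAP, and Elane, neutrophil elastase, 0.03 ± 0.54, adjusted p = 0.984.

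The remaining serpins have other roles. Serpinf1 encodes pigment epithelium-derived factor, a secreted protein without protease inhibition that restrains blood vessel growth. It had 457, 419 and 422 CPM in APAP_MSC libraries 1 to 3, 256, 331 and 339.7 CPM in the APAP_HDF libraries, and 307, 322 and 308 CPM in the APAP libraries. Each APAP_MSC library lay above the other 6, and the APAP libraries lay close together. Serpinf1 rose 1.38-fold against APAP (0.47 ± 0.12, adjusted p = 0.0432) and was 1.40-fold higher than in APAP_HDF (0.49 ± 0.12, adjusted p = 0.0311). The call against APAP held in 2 of 9 fits that left out a library, those without APAP_HDF library 1 or 3, and its adjusted p reached 0.139 without APAP_MSC library 1. The call against APAP_HDF was lost without any 1 APAP_MSC library (adjusted p up to 0.111) or APAP_HDF library 2 (adjusted p = 0.0555). Hepatocyte marker sums, given above, overlapped between the groups, and 0 of 7 hepatocyte markers passed against APAP, while 1 of 7 was higher in APAP_MSC than in APAP_HDF. Of all tested genes, 2.83% rose and 3.54% fell in APAP_MSC against APAP. Against APAP_HDF, 4.9% of all tested genes were higher and 3.99% lower.

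Serpinh1 encodes HSP47, the collagen chaperone of the endoplasmic reticulum. It had 28.6, 27.7 and 26.3 CPM in APAP_MSC, 26.01, 22.5 and 11.97 CPM in APAP_HDF and 27.9, 37.2 and 24.5 CPM in APAP. Its log2 fold changes were -0.12 ± 0.25, adjusted p = 0.837 in APAP_MSC against APAP and -0.56 ± 0.25, adjusted p = 0.567 in APAP_HDF against APAP. Stellate cell markers, 9 genes of the collagen-making cells, summed to 223 to 238 CPM in APAP_MSC, 169 to 247 CPM in APAP_HDF and 235 to 347 CPM in APAP. Of these 9, 1 fell in APAP_MSC against APAP, where 3.54% of all tested genes fell. Serpini1, neuroserpin, averaged 0.344 ± 0.0940 CPM in APAP_MSC, 0.509 ± 0.0411 CPM in APAP_HDF and 0.545 ± 0.0862 CPM in APAP (SD, n = 3 each). It did not pass (-0.67 ± 0.33, adjusted p = 0.256 in APAP_MSC against APAP).

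**Figure D4:**
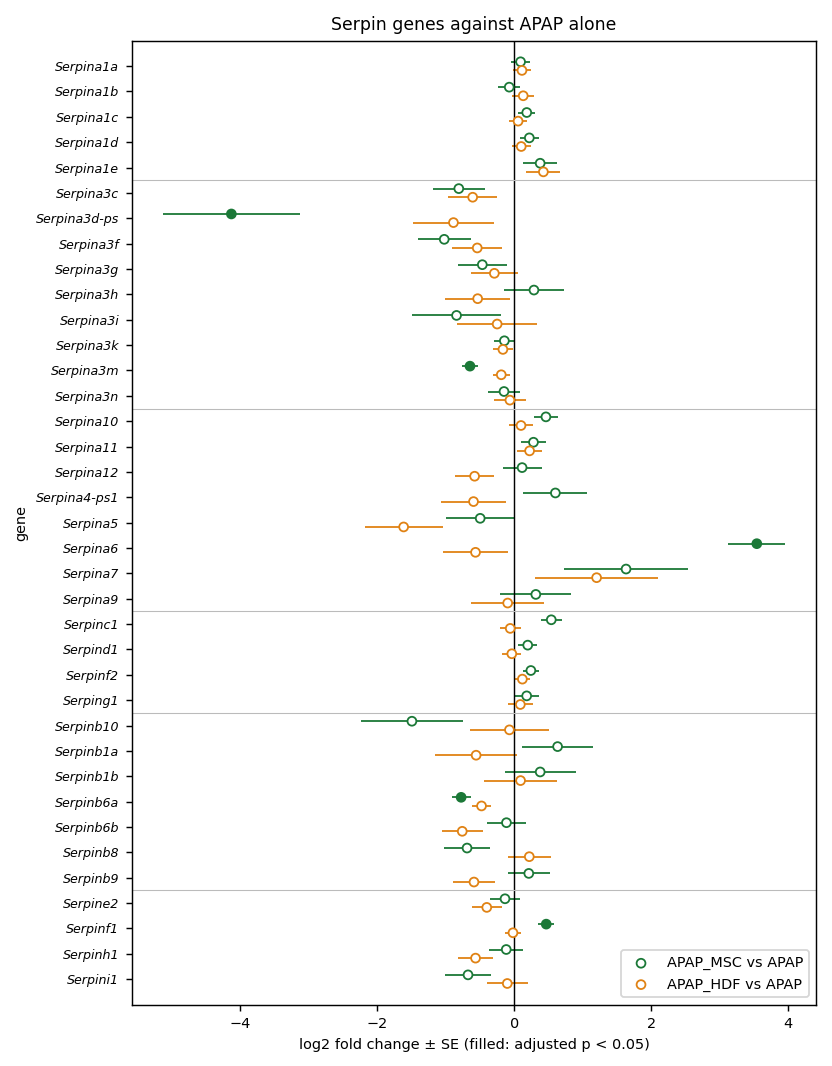
Log2 fold change with its SE for the kept serpins described here in APAP_MSC against APAP (green) and APAP_HDF against APAP (orange), which share the APAP libraries; filled points passed at an adjusted p under 0.05. Filled points are the green ones of Serpina6 and Serpinf1 on the right and Serpina3m, Serpina3d-ps and Serpinb6a on the left, and no orange point is filled.

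Genes that act on serpin production were followed as 3 lists, beside the 2.83% of all tested genes that rose and 3.54% that fell in APAP_MSC against APAP. Of 13 hepatocyte transcription factors of serpin and other liver genes, 1 rose and 0 fell in APAP_MSC against APAP (median 0.09): Cebpa, at 325 ± 25.6 CPM in APAP_MSC against 216 ± 22.99 CPM in APAP (0.59 ± 0.15, adjusted p = 0.0438). Foxa2 had 0.57 ± 0.16, adjusted p = 0.0596, Foxa1 0.29 and Cebpd, of the acute phase, -0.52. Against APAP_HDF, 0 of the 13 passed in APAP_MSC, Cebpa included, where 4.9% of all tested genes were higher and 3.99% lower. Of 15 genes for serpin folding, export and degradation, 0 passed in any comparison, with a median of 0.19 in APAP_MSC against APAP. Hspa5, the main chaperone of the endoplasmic reticulum, had 0.32 ± 0.17, adjusted p = 0.299 there, and Mcfd2, an export receptor subunit, 0.27 ± 0.11, adjusted p = 0.173. Calr and Syvn1 had 0.26 and 0.68.

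Of 19 tested genes of IL-6 signalling and the acute phase, the setting in which Serpina3n and the Serpina1 genes are usually studied, 0 passed in APAP_MSC against APAP (median 0.15). The receptor genes Il6ra (-0.76 ± 0.26, adjusted p = 0.122) and Il6st (-0.39 ± 0.13, adjusted p = 0.0919) had the smallest p, beside Saa2 (2.89 ± 1.28, adjusted p = 0.231) and Orm2 (1.32 ± 0.52, adjusted p = 0.176). Orm2, an orosomucoid, was higher than in APAP_HDF (2.11 ± 0.54, adjusted p = 0.0475), and 0 of 19 were lower, against 4.9% and 3.99% of all tested genes. With HDF, 0 members of these 3 lists passed against APAP.

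Spread among the libraries of a group was described by the ratio of its highest to its lowest value. Over the 38 serpins, the median of this ratio was 1.31 in APAP_MSC, 1.48 in APAP_HDF and 1.63 in APAP, and the ratio exceeded 2 for 8, 10 and 15 genes in the same order of groups. In APAP_MSC against APAP 6 of 38 serpins had all 3 APAP_MSC libraries above all 3 APAP libraries and 6 had them below, against 13.7% and 14.7% of all tested genes (28.5% in all). For APAP_HDF against APAP, 0 lay above and 2 below, against 5.66% and 6.08% (11.7% in all). For APAP_MSC against APAP_HDF, 10 lay above and 6 below, against 16.8% and 16.4% (33.2% in all). An absolute log2 fold change under 0.5 was seen for 23 of 38 serpins in APAP_MSC against APAP and for 25 of 38 in APAP_HDF against APAP.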

How the data were processed

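Per the labels' protocols, TRIZOL was used to extract RNA from whole liver tissue, and the library kit was Tecan universal plus mRNA-seq. HISAT2, Subread and DESeq2 are named in the submitters' processing notes, as are the builds mm39 and GRCm39, none with a version. Strand use in counting is not given in the sources used here. The authors deposited raw counts per gene as whole numbers. They also deposited normalized counts, a scaled signal that equals the raw counts over DESeq2 size factors within 0.07% and was used for that check alone. Column headers give the group but no replicate number, so library numbers follow column order within a group.

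From the raw counts, edgeR 4.0.16 in R 4.3.3 fitted a robust quasi-likelihood model of the group, without other terms, to all 9 libraries, after filterByExpr and TMM scaling (factors 0.934 to 1.11). P-values were two-sided and Benjamini-Hochberg adjusted over 17582 genes, and the SE comes from the F statistic. DESeq2 1.42.0, other scaling, other filters, a fit of 2 groups only, paralog sums, left-out libraries and an earlier edgeR method were alternatives, the last chosen after seeing the data. The steps were tested on simulated data. Exon lengths and window uniqueness came from GENCODE M21 (GRCm38), and promoters and chromosomes from RefSeq GRCm38.p6, which is not the build of the counts. Values in every library are printed for serpins past the test and for a fixed set of readouts, apart from 1 gene that is counted but not reported here, and up to 4 members with the smallest p in APAP_MSC against APAP of each of 10 lists are named, with members that passed in another comparison. Members and lists were chosen with earlier results of these data known.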

Additional observations from a re-analysis of the deposited data

How the results depend on the processing

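No paired analysis was possible because the columns carry no replicate number. The count of serpins past the test in APAP_MSC against APAP was 5. It was 3 with paralog sums in place of single copies, where the Serpina3 copies became 1 entry, and ran from 1 to 7 when each library was left out in turn (1 without APAP_MSC library 1, 2 without APAP_MSC library 2 or 3, 3 without APAP library 1, 7 without APAP_HDF library 1). In APAP_MSC against APAP_HDF the count was 5 and ran from 1 to 5 with a library left out (1 without APAP_MSC library 1, 2 or 3, 2 without APAP_HDF library 2, 3 without APAP_HDF library 3). In APAP_HDF against APAP it was 0 in every setting tried, including DESeq2. With DESeq2 it was 7 in APAP_MSC against APAP, with Serpinc1 among those added, and 6 in APAP_MSC against APAP_HDF, with Serpina3d-ps added. Of all genes it tested, DESeq2 called 10.9% in APAP_MSC against APAP and 13.3% in APAP_MSC against APAP_HDF. The Serpina6 calls in both comparisons held in all 9 fits with a library left out and in the 7 other settings. Over 75 single-gene results, 40 refits lost a call, 16 gained one and 0 called values changed sign; 33 values not past the test changed sign. With 3 libraries a group, differences of the size seen for Serpinc1 or Serpinf1 sit near the threshold, and members below 1 CPM rest on few counts.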
